A study of Mus musculus with 816 samples.

Results

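Metal handling by microglia, the resident macrophages of the brain, was followed through 10 genes across a panel of stimuli and in mice. The genes were chosen by name for their roles: the metallothioneins Mt1 and Mt2, the ferritin subunits Fth1 and Ftl1, the iron exporter ferroportin (Slc40a1), the transferrin receptor Tfrc, the metal transporters Slc11a1 and Slc11a2, the zinc and iron importer Slc39a14 and the zinc exporter Slc30a1. All 10 were rows of both expression tables, which listed 45581 genes for cultures and 29858 for mice. All 10 also passed the filters on low values, which left 16935 genes to test in cultures, 9012 in the LPS experiment in mice and 9632 in the aging experiment.

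Expression was measured by sequencing of the 3′ ends of transcripts, in 784 cultures of primary microglia from neonatal mice and in microglia from 32 C57BL/6 mice. The strain and genotype of the cultured cells are not given in the sources used here. Of the cultures, 783 fell into 97 groups by stimulus, dose and time, with 40 untreated cultures at 24 h, 25 untreated cultures at 72 h and none at 4 h. One stimulus or a combination was added 4 days after plating and left for 4, 24 or 72 h. The stimuli named most often below are lipopolysaccharide (LPS, a bacterial membrane component) at 0.0001 µg/µl (LPS_hi) or 0.00001 µg/µl (LPS_lo), the lipopeptide P3C at 0.001 µg/µl, the RNA mimic poly(I:C) (IC) at 0.2 µg/µl, the interferons IFNa at 0.0008 µg/µl and IFNb and IFNg at 0.0001 µg/µl, TGFb at 0.0001 µg/µl, IL4, IL10 and IL13 at 0.00005 µg/µl, and TNFa at 0.000004 µg/µl. In the first mouse experiment, females of 2 months received 2 mg/kg LPS into the peritoneum (n = 4) or PBS (n = 4) and were sampled after 4 h. In the second, naive males of 22 months (n = 13) were compared with naive males of 2 months (n = 11). The sample labels call all 24 naive, while the column headers of 8 of them, 4 of each age, carry the word Vehicle, as do those of all 8 mice of the LPS experiment, without naming an agent. Brains were perfused and dissociated, and cells were taken by a magnetic sort on CD11b, a protein that blood myeloid cells carry as well.

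Values are counts scaled to a common library total (counts per M mapped reads, CPM), so each is a share of all reads of its library. In bulk samples, fewer cells of a type and less RNA per cell cannot be told apart. A fold change is a difference on the log2(CPM + 1) scale, which understates the change of low genes. A gene was called changed in a comparison at a limma adjusted p under 0.05 over all genes tested together with a change of at least 1.5-fold. Mapped reads, here and below, were estimated for each library by taking its most frequent low value as the worth of 1 read. The estimates ranged from 1.00 to 38.2 M per culture (median 4.69) and from 2.36 to 7.78 M per mouse (median 4.08), and 107 cultures were under 2 M. The labels do not say that replicates came from separate animals or cell preparations, so p-values measure the spread between these samples, part of which may be technical. The column headers list 3 cell lots for the 783 cultures in groups, so many cultures share a lot. The microglia marker Tmem119 had a median of 4770 CPM in PBS mice against 14.6 CPM in untreated 24 h cultures, and P2ry12 stood at 757 against 3.49 CPM. Csf1r, the receptor for macrophage colony-stimulating factor, was at a median of 19747 CPM in PBS mice and 3927 CPM in untreated 24 h cultures. Of 8 neutrophil markers, 3 (S100a9 among them) were at 0 in all untreated 24 h cultures, and the 8 summed to a median of 8.71 CPM (2.39 to 32.6). Of 6 red cell markers, 5 (Hba-a1 among them) were at 0 in all, with sums up to 0.738 CPM. Markers of other cells were present there, with summed medians of 300 CPM for perivascular macrophages, 276 CPM for oligodendrocytes and 49.2 CPM (up to 385 CPM) for fibroblasts. Levels in the cultures and in the mice come from separate tables and were not tested against each other, and levels of different genes are not compared because CPM carry no length term.

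Metallothioneins are small cysteine-rich proteins that bind zinc and copper, and their genes respond to metals, glucocorticoids and inflammatory signals. Iron enters macrophages by the transferrin receptor and by recycled red cells, is kept in ferritin, a shell of heavy (Fth1) and light (Ftl1) subunits, and leaves by ferroportin, the only known iron exporter of mammals. Slc11a1 (Nramp1) moves metal ions out of phagosomes, Slc11a2 (DMT1) moves ferrous iron across membranes, Slc39a14 (ZIP14) brings zinc and iron into the cell and Slc30a1 (ZnT1) lets zinc out. Macrophages in inflammation are known to hold iron back by lowering ferroportin.

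The sequences through which these genes are known to read zinc and iron are shown because they set the members apart from each other. The transcription factor MTF1 binds metal response elements, whose core is TGCACNC or TGCGCNC. Mt2 and Mt1 lie next to each other on chromosome 8, and the 250 bases before the start of each, from the RefSeq promoter table on GRCm38.p6, are printed 5′ to 3′ on the plus strand with that core on either strand in capitals (Mt2 at chr8:94172368-94172617, Mt1 at chr8:94178839-94179088).
Mt2: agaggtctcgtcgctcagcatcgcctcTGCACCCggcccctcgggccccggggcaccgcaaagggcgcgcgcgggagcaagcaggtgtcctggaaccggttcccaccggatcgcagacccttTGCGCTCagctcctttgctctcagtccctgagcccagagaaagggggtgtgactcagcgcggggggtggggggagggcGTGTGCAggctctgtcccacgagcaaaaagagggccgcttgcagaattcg
Mt1: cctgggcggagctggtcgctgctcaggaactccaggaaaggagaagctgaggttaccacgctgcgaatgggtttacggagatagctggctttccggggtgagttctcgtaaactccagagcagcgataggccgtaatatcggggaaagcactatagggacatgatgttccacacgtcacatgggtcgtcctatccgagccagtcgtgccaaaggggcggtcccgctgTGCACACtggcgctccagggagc
In the window of 300 bases that the table holds for each start, which adds 50 bases after it, Mt2 carried 4 cores (3 before the start, 1 after) and Mt1 carried 3 (1 before, 2 after). The annotated gene span of Mt1 begins at 94178883, inside its printed window, and that of Mt2 at 94172618, just after its window. The counts before and after hold for the starts of the promoter table. Slc30a1 carried 2, 1 of the starts of Tfrc carried 2, and Fth1, Ftl1 and Slc11a1 carried none. Of 32851 promoters of this length, 25.7% held at least 1 core, 7.11% at least 2, 1.97% at least 3 and 0.517% at least 4. Of the 10 genes, 7 were in the table. A match of these letters is a description and not a measured binding site.

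Iron-responsive elements are hairpins in messenger RNA that the iron regulatory proteins bind when iron is low. In the 5′ UTR they block translation, and in the 3′ UTR they protect the transcript from decay. Transcripts of GENCODE vM21 were searched for the loop CAGTGN (in capitals below) flanked by 5 paired bases on each side and an unpaired C before them, and 27 bases are shown for each match.
Fth1, 5′ UTR: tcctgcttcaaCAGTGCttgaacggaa
Ftl1, 5′ UTR: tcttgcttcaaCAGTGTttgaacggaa
Slc40a1, 5′ UTR: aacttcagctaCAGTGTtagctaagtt
Tfrc, 3′ UTR: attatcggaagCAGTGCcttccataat
Tfrc, 3′ UTR: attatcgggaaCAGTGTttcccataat
Tfrc, 3′ UTR: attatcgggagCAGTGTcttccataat
Tfrc, 3′ UTR: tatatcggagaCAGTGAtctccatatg
Ferritin and ferroportin thus carried the hairpin before the coding sequence and Tfrc carried 4 after it, in 4 of the 10 genes. The search took only this strict form, so an element with another loop or a bulged stem would be missed. A gene without a match, such as Slc11a2, may therefore still carry an element, and Tfrc may carry more. Among 21877 coding genes, 31 (0.142%) had a match in a 5′ UTR and 129 (0.59%) in a 3′ UTR. Sequencing of 3′ ends measures transcripts, so any control of translation through the 5′ hairpins was outside these measurements.

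Across the 86 conditions that could be compared with untreated cultures of the same time (44 at 24 h, 42 at 72 h), Slc40a1 changed more often than nearly every other gene. It was called in 49 conditions, 47 of them lower, and 99.99% of the 16935 genes were called in fewer. Of these calls 31 were at 72 h, where the untreated cultures had the highest Slc40a1 mean of all 97 conditions (1067 CPM). The median gene was called in 3 conditions, and 7.18% of all gene-by-condition tests were calls (2.94% higher, 4.25% lower). Fth1 was called in 34 conditions (26 higher, 8 lower), Slc11a1 in 30 (23 higher, 7 lower) and Mt1 and Mt2 in 28 and 22, all lower in this fit. A few higher calls of the metallothioneins appeared under other settings, 2 of Mt1 and 3 of Mt2 both with the library pool in the model and with only the 2 groups compared in the fit, and 2 and 1 of Mt2 at a pseudocount of 5 and with centring. Tfrc was called in 18 (7 higher, 11 lower), Slc11a2 in 16 (13 higher, 3 lower), Ftl1 in 15 (1 higher, 14 lower), Slc30a1 in 10 (3 higher, 7 lower) and Slc39a14 in 5 (4 higher, 1 lower). All conditions of a time share the same untreated cultures, so these counts are not independent of each other. Where each library was centred on its median gene, the split moved most for Ftl1 (4 higher and 4 lower), Slc11a1 (23 and 1), Slc11a2 (23 and 1) and Slc30a1 (4 and 4), and less for Fth1 (25 and 5), Slc39a14 (7 and 1) and Mt2 (1 and 16).

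**Figure D1:**
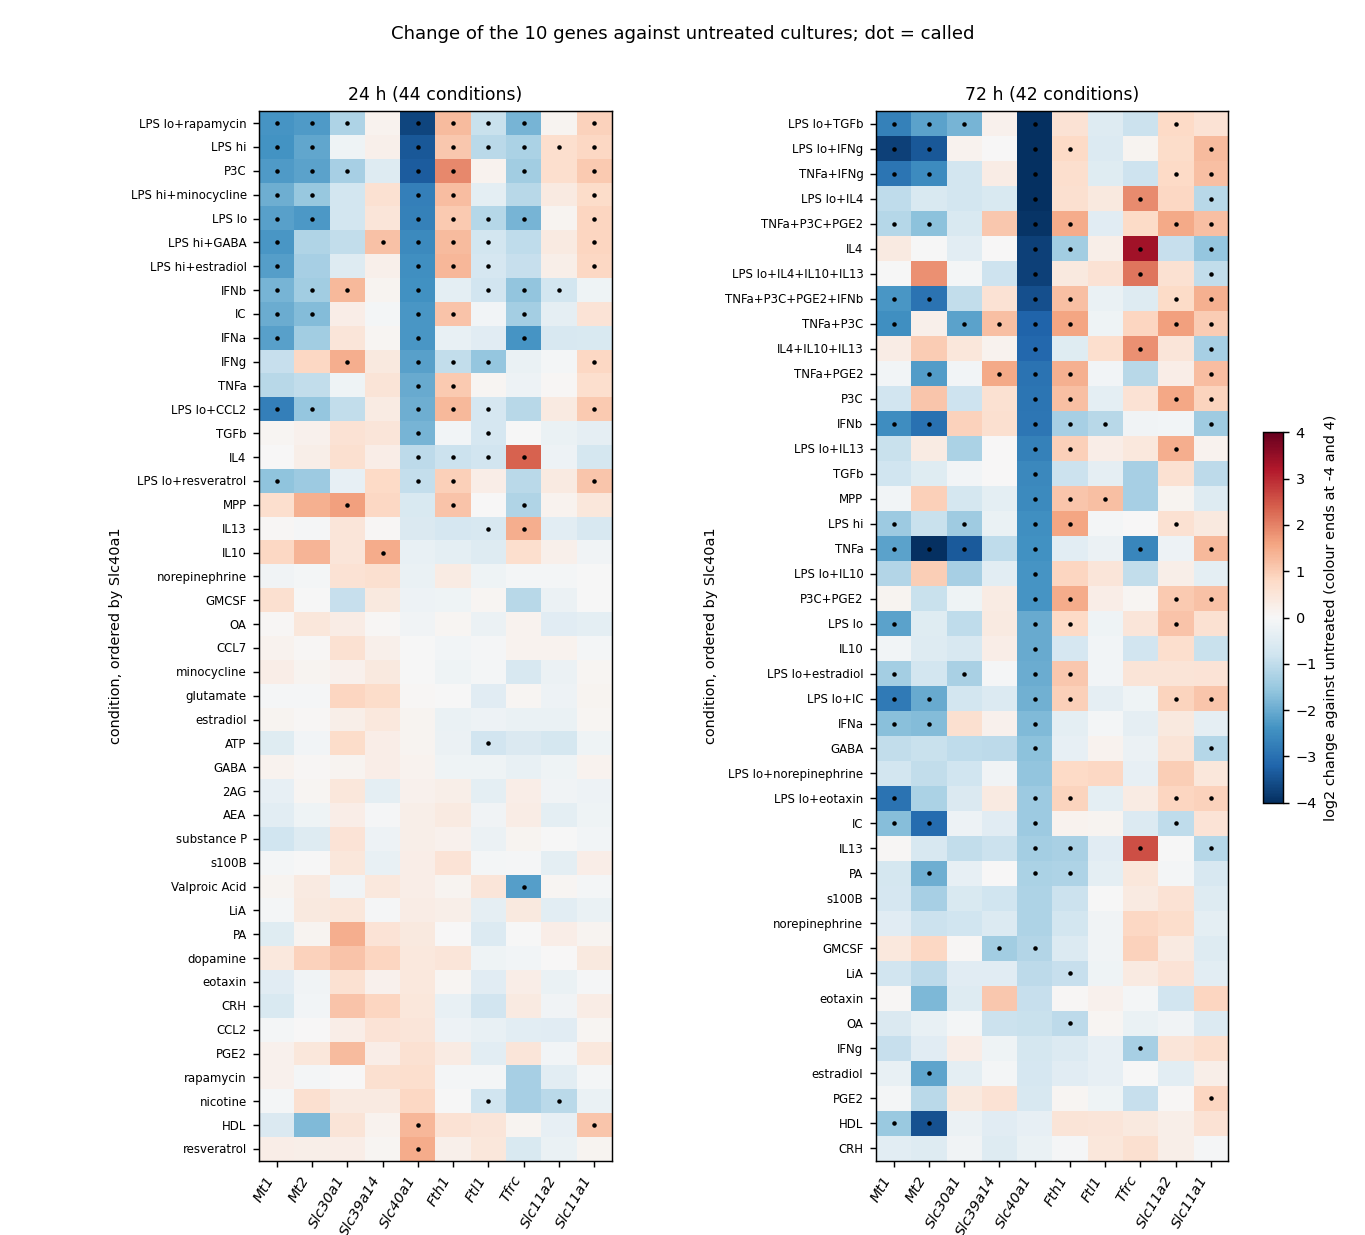
Colour map of the log2 fold change against untreated cultures of the same time (log2(CPM + 1) scale, colours ending at -4 and 4) for the 10 genes (columns) in 44 conditions at 24 h and 42 at 72 h (rows, ordered by Slc40a1), with a dot where the gene was called. The Slc40a1 column is blue with dots in 16 conditions at 24 h and 31 at 72 h, and the reds of Tfrc stand at IL4 and IL13.

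LPS_hi for 24 h moved 8 of the 10 genes, 5 lower and 3 higher, where 26.8% of all genes tested were called and the median gene shifted by -0.14. Ferroportin fell furthest, both metallothioneins fell, and the ferritin subunits moved apart, Fth1 up and Ftl1 down. Slc40a1 ranged from 53.7 to 370 CPM with a median of 158 in the 40 untreated cultures and from 4.28 to 44.3 CPM with a median of 13.2 in the 18 LPS_hi cultures. The ranges did not overlap, and the log2 fold change was -3.38 (SE 0.25, adjusted p = 3.95e-34). Within the 6 plates that held both groups the difference ran from -3.85 to -2.71, lower in 6 of 6.

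Mt1 had a median of 388 CPM untreated (135 to 946) and 82.3 CPM under LPS_hi (26.1 to 149), a fall of 2.41 on the log2 scale (SE 0.26, adjusted p = 1.2e-17). Of the 18 LPS_hi cultures 4 reached into the untreated range. Mt2 had a median of 66.4 CPM untreated (7.28 to 185) and 15.7 CPM under LPS_hi (0.363 to 58.5), with a log2 fold change of -2.06 (SE 0.40, adjusted p = 2.44e-06) and wider overlap. Both genes were lower in 6 of 6 plates. The zinc transporters Slc30a1 (log2 fold change -0.18, adjusted p = 0.728) and Slc39a14 (0.20, adjusted p = 0.703) did not pass the test.

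Fth1 had a median of 9909 CPM untreated (3460 to 25143) and 19292 CPM under LPS_hi (12520.1 to 48550.2), a log2 fold change of 1.08 (SE 0.18, adjusted p = 1.92e-08). Ftl1 had a median of 28816 CPM untreated (15059 to 83295) and 13835 CPM under LPS_hi (8380.1 to 23137), a log2 fold change of -1.09 (SE 0.15, adjusted p = 1.61e-11). The 2 subunits of the same storage protein therefore moved in opposite directions, each in 6 of 6 plates, although single cultures overlapped for both genes. Tfrc was lower by a log2 fold change of -1.25 (SE 0.30, adjusted p = 0.000262), from a median of 38.2 CPM (9.86 to 73.4) to 17.6 CPM (4.901 to 31.5). Slc11a1 rose from a median of 92.6 CPM (27.6 to 189) to 151 CPM (111 to 374), with a log2 fold change of 0.82 (SE 0.19, adjusted p = 0.000179), and was higher in 5 of 6 plates, with -0.14 in the sixth. Slc11a2 rose from a median of 62.2 CPM (18.8 to 115) to 97.4 CPM (52.4 to 143), with a log2 fold change of 0.69 (SE 0.19, adjusted p = 0.0015), higher in 6 of 6 plates, and with the library pool in the model its change was under 1.5-fold (log2 fold change 0.57).

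Other expression moved with LPS_hi at 24 h. The summed level of 6 proliferation genes fell from a median of 656 CPM (75.8 to 1145) to 79.2 CPM (38.5 to 225), and that of 10 microglia markers from 5985 CPM (3626 to 9603) to 1513 CPM (949.6 to 2836). The summed level of 10 genes of the tissue dissociation response rose from 307 to 546 CPM (medians). Whether these had a part in the changes of the metal genes was not tested. Centring on the median gene added 0.40 to each log2 fold change in this comparison and left the same number called, 5 lower and 3 higher.

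**Figure D2:**
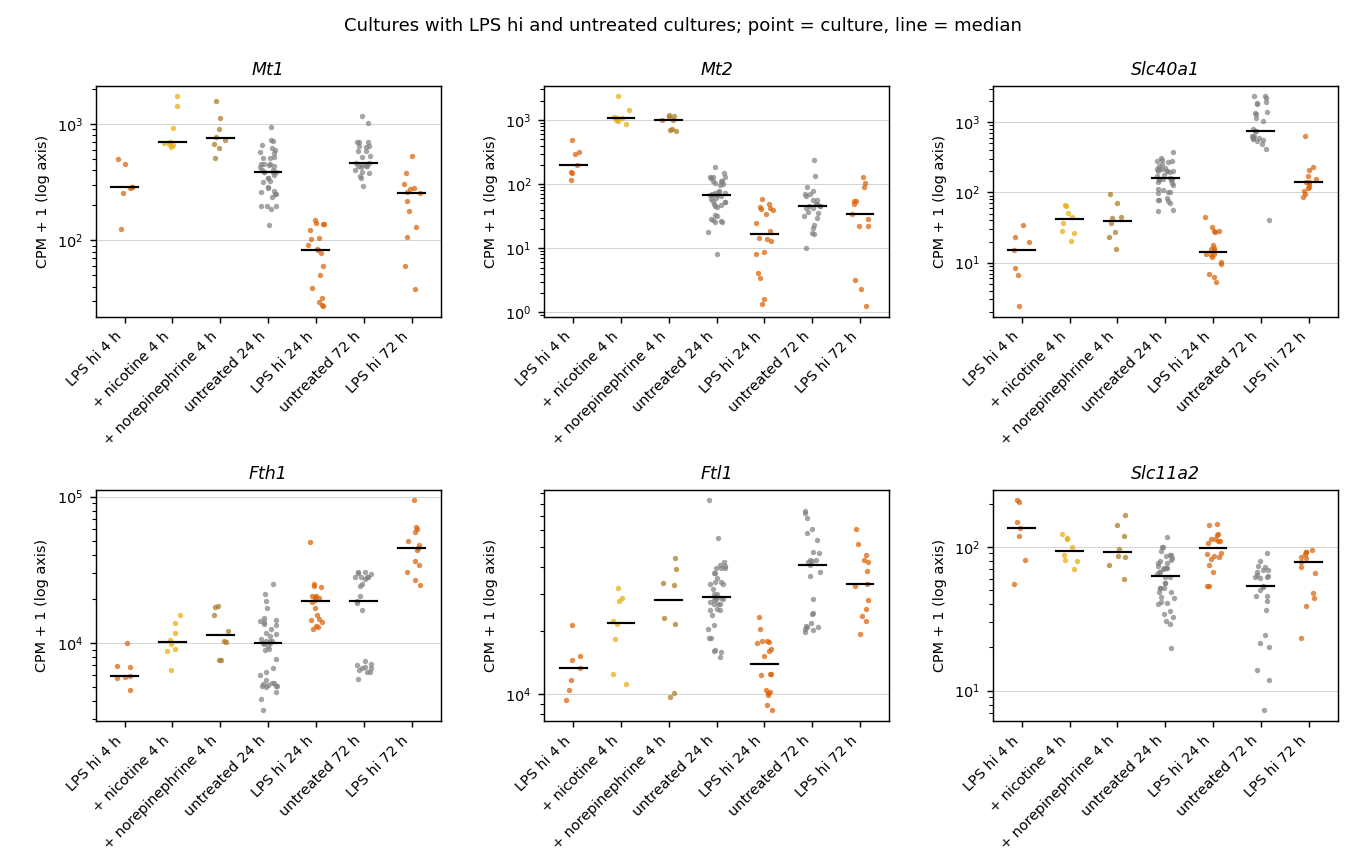
CPM + 1 on a log axis for each culture (point) with the group median (line), in 1 panel each for Mt1, Mt2, Slc40a1, Fth1, Ftl1 and Slc11a2, for LPS_hi alone or with nicotine or norepinephrine at 4 h and for untreated and LPS_hi cultures at 24 and 72 h. The LPS_hi cultures at 24 h lie below every untreated 24 h culture for Slc40a1, and Mt2 is high at 4 h, with a median of 198 CPM, and low at 24 h, with 15.7 CPM.

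No difference between the doses of LPS was detected at 24 h. None of the 10 genes differed between LPS_hi and LPS_lo (7 cultures) by limma, where 0.337% of all genes were called, and none had an unadjusted p under 0.05 (968 of all genes did). The nearest was Slc11a2, with a log2 fold change of 0.57. LPS_lo for 24 h lowered Slc40a1 (4.21 to 56.9 CPM, median 34.2, log2 fold change -2.69, SE 0.37, adjusted p = 3.22e-11), Mt1 (-2.18), Mt2 (-2.31), Ftl1 (-1.14) and Tfrc (-1.84) and raised Fth1 (1.03) and Slc11a1 (0.86). At 72 h Fth1 was higher at the higher dose (log2 fold change 0.77, adjusted p = 0.0441), and the other 9 genes were not called.

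After 72 h of LPS_hi, 5 of the 10 genes were called (2 higher, 3 lower, with 22.3% of all genes called). Slc40a1 had a median of 757 CPM in the 25 untreated cultures (39.3 to 2333) and 140 CPM in the 13 LPS_hi cultures (84.8 to 639), a log2 fold change of -2.46 (SE 0.31, adjusted p = 2.14e-13), lower in 4 of 4 plates. Fth1 went from a median of 19410.2 CPM (5662 to 30561) to 44454 CPM (24885 to 94285), a log2 fold change of 1.56 (SE 0.21, adjusted p = 1.7e-11), higher in 4 of 4 plates. Of the 13 LPS_hi cultures 11 exceeded every untreated culture for Fth1, while for Slc40a1 the groups overlapped. Mt1 was lower (median 464 CPM against 256 CPM, log2 fold change -1.46, SE 0.31, adjusted p = 6.14e-05), and Mt2 was not called (-0.89, adjusted p = 0.173). Slc30a1 was lower (-1.42, SE 0.36, adjusted p = 0.000987) and Slc11a2 higher (0.60, adjusted p = 0.037). The Slc11a2 call was lost with only the 2 groups in the fit (adjusted p = 0.17), at a pseudocount of 0.1 (0.055), without the filter on low values (0.0659) and, by size, at a pseudocount of 5 (log2 fold change 0.53). Ftl1 (-0.09, adjusted p = 0.814), Tfrc (0.00) and Slc11a1 (0.40, adjusted p = 0.224) were not called, and the change of Ftl1 differed between the times by 1.01 (SE 0.23, adjusted p = 0.00104). Centring on the median gene added 0.75 here and gave 4 higher and 2 lower, with Slc30a1 no longer called and Ftl1 (0.67, adjusted p = 0.027) and Slc11a1 (1.15) called higher. Without centring, Ftl1 was lower in 3 of 4 plates (-0.88 to 0.22), and so was Slc11a1 (-0.18 to 1.18).

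At 4 h no untreated cultures existed, so the 7 LPS_hi cultures were compared with untreated cultures of 24 h and time and stimulus cannot be told apart. Of the 10 genes 6 were called, 3 higher and 3 lower, with 35.3% of all genes called and a median shift of -0.39. Mt2 was higher, at 116 to 489 CPM (median 198, log2 fold change 1.86, SE 0.57, adjusted p = 0.00515), the reverse of its direction at 24 h. Mt1 was not called (-0.38, adjusted p = 0.478). Slc40a1 was already low, at 1.40 to 32.9 CPM (median 14.3), without overlap with the untreated cultures (log2 fold change -3.71, SE 0.37, adjusted p = 1.07e-20). Slc11a2 was higher (54.1 to 210 CPM, median 134, log2 fold change 1.09, adjusted p = 0.000422), as was Slc39a14 (0.694 to 36.4 CPM, median 8.44, log2 fold change 1.17, adjusted p = 0.0265). The Slc39a14 call was lost at a pseudocount of 0.1 (adjusted p = 0.13), without the filter on low values (0.0518) and without cultures under 2 M reads (0.0872). Ftl1 (-1.14) and Tfrc (-1.57) were lower, and both calls were lost when libraries were centred on the median gene (-0.11 and -0.54), which added 1.03 to every value and gave 4 higher and 1 lower. Against 4 h cultures with the chemokines CCL2 or CCL7, in which none of the 10 genes was called, Mt2 (2.05, adjusted p = 0.0082), Slc40a1 (-3.69), Ftl1 (-1.18) and Tfrc (-1.57) were called and Slc11a2 (0.70, adjusted p = 0.0682) and Slc39a14 (0.81, adjusted p = 0.225) were not.

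The metallothioneins stood highest of all 97 conditions when LPS_hi was combined for 4 h with nicotine (1000 µM), at condition means of 928 CPM for Mt1 and 1236 CPM for Mt2. In the 8 cultures with nicotine Mt2 ranged from 871 to 2344 CPM (median 1074) and in the 8 with norepinephrine (1 µM) from 676 to 1214 CPM (median 1003), above every untreated 24 h culture in both cases (log2 fold changes 4.28 and 3.94, adjusted p = 4.98e-13 and 3.2e-11). Mt1 was called in both (1.2004, adjusted p = 0.00593, and 1.11, adjusted p = 0.00928). Slc39a14 reached 11.6 to 57.2 CPM (median 30.1) with LPS_hi and norepinephrine, again without overlap with the untreated cultures (log2 fold change 2.91, adjusted p = 2.74e-10). With ATP (1000 µM) added to LPS_hi, Slc11a2 was at 129 to 276 CPM (median 190), without overlap (1.76, adjusted p = 6.87e-08), and Slc30a1 was at 71.4 to 126 CPM (1.34, adjusted p = 0.021). Against LPS_hi alone at 4 h these additions changed Slc40a1, which was less low. Its log2 fold changes were 1.73 with nicotine, 1.70 with norepinephrine and 1.77 with ATP. Ftl1 was higher with ATP (1.17). These 4 calls were lost when libraries were centred on the median gene, with adjusted p from 0.12 to 0.408. Neither metallothionein was called against LPS_hi alone, although their means were higher. Mt2 had means of 1236 CPM with nicotine and 952 CPM with norepinephrine against 245 CPM with LPS_hi alone, and these ranges did not overlap. Mt1 had means of 928 and 862 CPM against 312 CPM. Nicotine or ATP alone for 4 h moved none of the 10 genes by this rule, and norepinephrine alone lowered Slc40a1 (-1.35, adjusted p = 0.00735).

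Zinc-handling genes in the rest of the panel followed separate patterns. At 24 h Mt1 was lower with P3C (20.1 to 162 CPM, median 86.2, log2 fold change -2.27, adjusted p = 6.79e-07), with IC (-1.98), with IFNa (39.2 to 126 CPM, -2.16, no overlap) and with IFNb (68.4 to 167 CPM, -1.86). IFNg left Mt1 at 102 to 311 CPM (median 250.4) and Mt2 at 53.6 to 167 CPM, neither of them called. IL4, IL13, TGFb and IL10 did not lead to a call of either gene. At 72 h the lowest condition mean of Mt1, 59.8 CPM, came with LPS_lo and IFNg (5.81 to 184 CPM, median 51.7, log2 fold change -3.74, SE 0.39, adjusted p = 3.49e-18), below every untreated 72 h culture. Mt2 was listed at 0 in 2 of the 3 cultures with TNFa for 72 h and at 0.424 CPM in the other, at depths of 1.98 to 2.36 M reads (log2 fold change -5.30, adjusted p = 3.22e-08). Mt1 in those 3 cultures ran from 11.6 to 669 CPM, and its call (-2.14, adjusted p = 0.00117) rested on 1 culture, since leaving out 1 of the 3 gave -0.53 (adjusted p = 0.657). Slc30a1, the zinc exporter, rose with the neurotoxin MPP at 24 h (94.2 to 121 CPM, log2 fold change 1.64, adjusted p = 0.0031), with IFNg (31.3 to 169 CPM, 1.44, adjusted p = 0.00378) and with IFNb (29.97 to 151 CPM, 1.31, adjusted p = 0.00789). The calls with MPP (1.02, adjusted p = 0.0679) and IFNg (0.91, adjusted p = 0.0563) were lost with the plate in the model. Slc39a14, low throughout (median 3.61 CPM untreated at 24 h), was higher with IL10 at 24 h (5.07 to 18.98 CPM, 1.49, adjusted p = 0.022), a call lost with the plate in the model (1.23, adjusted p = 0.0895).

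Ferroportin was lowered at 24 h by stimuli of several receptor classes, and 2 conditions raised it. P3C left it at 1.96 to 39.2 CPM (log2 fold change -3.32, adjusted p = 1.36e-14), IC at 13.6 to 60.3 CPM (-2.34), IFNa at 0.440 to 83.9 CPM (-2.33), IFNb at 18.7 to 73.8 CPM (-2.41), IFNg at 24.9 to 49.0 CPM (median 33.3), TNFa at 20.1 to 65.7 CPM (-2.004) and TGFb at 21.6 to 67.3 CPM (-1.86), against 53.7 to 370 CPM untreated. The interferons, whose receptors differ between type I (IFNa, IFNb) and type II (IFNg), thus all gave calls in the same direction. The lowest condition mean was 13.2 CPM, with LPS_lo and rapamycin (3.54 to 24.9 CPM, -3.67, adjusted p = 6.32e-20). The antioxidant polyphenol resveratrol (50 µM) raised Slc40a1 to 290 to 887 CPM (median 356, log2 fold change 1.48, adjusted p = 0.00107), and high-density lipoprotein (HDL, 2 µg/µl) to 211 to 614 CPM (median 396, 1.32, adjusted p = 0.0295). Both ranges overlapped the upper part of the untreated cultures. With resveratrol added to LPS_lo, Slc40a1 had a mean of 99.1 CPM against 30.9 CPM with LPS_lo alone (1.74, adjusted p = 0.027), and with the pool in the model this was 1.04 (adjusted p = 0.224).

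In untreated cultures Slc40a1 itself stood higher at 72 h than at 24 h, with medians of 757 and 158 CPM and 24 of 25 cultures above the 24 h median (log2 fold change 2.44, SE 0.23, adjusted p = 5.87e-22). The 72 h group was spread by plate, with plate means of 563, 586, 1239 and 2083 CPM. Fth1 (0.74, adjusted p = 6.12e-05) and Slc11a1 (0.85, adjusted p = 3.62e-05) were also higher at 72 h and Tfrc was lower (-1.16, adjusted p = 0.000353), 4 of the 10 genes where 16.9% of all genes were called. The plate means of Fth1 at 72 h were 6683, 20545, 26543 and 28511 CPM. No plate held both times, so time and plate cannot be told apart, and with the library pool in the model none of the 4 was called. Proliferation genes summed to a median of 71.6 CPM at 72 h (7.36 to 975) and 656 CPM at 24 h, and their part in these values was not tested.

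The deepest falls of Slc40a1 against untreated cultures were at 72 h, where its median log2 fold change over 42 conditions was -2.02 and 31 were called lower. The untreated 72 h cultures, the reference here, themselves had the highest mean of all 97 conditions (1067 CPM). How much of these falls comes from that high reference was not tested. LPS_lo with TGFb left it at 3.14 to 43.3 CPM (median 25.9), a log2 fold change of -5.40 (SE 0.36, adjusted p = 1.87e-39). Against LPS_lo alone, which had a mean of 218 CPM, this was a further fall of 3.38 on the log2 scale (adjusted p = 2.75e-12) without overlap. LPS_lo with IFNg reached -4.66 against untreated cultures and -2.64 against LPS_lo alone (adjusted p = 3.85e-07), and TNFa with IFNg reached -4.43. LPS_lo with IL4 was below LPS_lo alone as well (-2.03, adjusted p = 0.00285), a call lost when 1 culture was left out (-1.52, adjusted p = 0.156).

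The 19 additions to LPS gave 16 calls among 190 tests of the 10 genes, 8 higher and 8 lower, where 1.33% of all such tests were calls, and 8 of the 16 were calls of Slc40a1. IL4, IL10 and IL13 added together to LPS_lo for 72 h gave Mt1 a mean of 818 CPM against 174 CPM (log2 fold change 2.12, adjusted p = 0.00111) and Mt2 a mean of 176 CPM against 41.7 CPM (2.31, adjusted p = 0.0418), the latter lost in 4 of the fits that left out 1 culture (adjusted p up to 0.131). The same addition lowered Slc11a1 from a mean of 323 to 107 CPM (-1.59, adjusted p = 0.000946), and IL4 as the only addition lowered it to 88.1 CPM (-1.71, adjusted p = 0.000626). IFNg went the other way for the metallothioneins, with Mt1 at 59.8 CPM (-1.60, adjusted p = 0.0166) and Mt2 at 5.32 CPM (-2.89, adjusted p = 0.00173). The Mt1 call was lost with the plate in the model (-1.204, adjusted p = 0.0688). Ftl1 was the other gene that resveratrol changed with LPS_lo, at a mean of 35382 CPM against 13771 CPM without overlap (1.40, adjusted p = 0.000453).

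The ferritin subunits also parted elsewhere in the panel. P3C at 24 h took Fth1 to 19576 to 56794 CPM (median 36026, log2 fold change 1.92, SE 0.27, adjusted p = 1.53e-10) and left Ftl1 at 23789 to 47528 CPM, which was not called. IC (1.14) and TNFa (1.05) raised Fth1 as well, and 1 IC culture whose profile was nearer to P3C (r = 0.955) than to the other IC cultures (0.912) did not decide the call (0.93 without it). IFNg lowered both, Fth1 to 2757 to 7457 CPM (-0.97, adjusted p = 0.000511) and Ftl1 to 5405 to 19255 CPM (-1.56, SE 0.19, adjusted p = 4.69e-13), and each was at its lowest condition mean of the 97 there. At 72 h TNFa with P3C gave the largest rise of Fth1 (30262 to 62622 CPM, 1.59, adjusted p = 1.17e-07), and MPP gave the only rise of Ftl1 (76215 to 86949 CPM, 1.19, adjusted p = 7.84e-05), above every untreated culture. IFNb at 72 h lowered both (-1.33 and -1.10, n = 4).

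The transferrin receptor rose most with IL4 and IL13, cytokines that share a receptor subunit. With IL4 for 24 h, 11 cultures ranged from 131 to 273 CPM (median 174) against 9.86 to 73.4 CPM untreated, a log2 fold change of 2.37 (SE 0.36, adjusted p = 3.38e-08) with no overlap. The rise was 1.87 to 2.25 in each of the 3 plates that held both. With IL13, 9 cultures ranged from 79.8 to 126 CPM (median 96.2), again without overlap (1.47, SE 0.39, adjusted p = 0.0168), although with the plate in the model the adjusted p was 0.146 (1.19). At 72 h the 3 IL4 cultures had 155, 156 and 190.4 CPM (3.35, SE 0.65, adjusted p = 6.53e-05) and the 6 IL13 cultures 59.9 to 146 CPM (2.57, adjusted p = 4.02e-05), against 0 to 54.3 CPM untreated. IL10, which uses another receptor, left Tfrc at 25.7 to 93.2 CPM at 24 h, which was not called. The summed monocyte markers were at 130 CPM with IL4 and 38.7 CPM untreated (medians), and proliferation genes at 583 and 656 CPM, and the part of either was not tested.

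IL4 for 24 h also lowered Slc40a1 (43.1 to 107 CPM, median 74.2, lower in 3 of 3 plates), Fth1 (3771 to 6968 CPM, -0.85, adjusted p = 0.00327) and Ftl1. With the plate in the model Fth1 (-0.58) fell short of 1.5-fold and Ftl1 (-0.14, adjusted p = 0.989) was not called. Tfrc fell with IFNa at 24 h (0.567 to 33.8 CPM, median 6.31, -2.35, adjusted p = 1.01e-06), with IFNb (-1.58, adjusted p = 0.000719) and with valproic acid (1000 µM, 0 to 18.4 CPM, -2.21, adjusted p = 0.000225).

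**Figure D3:**
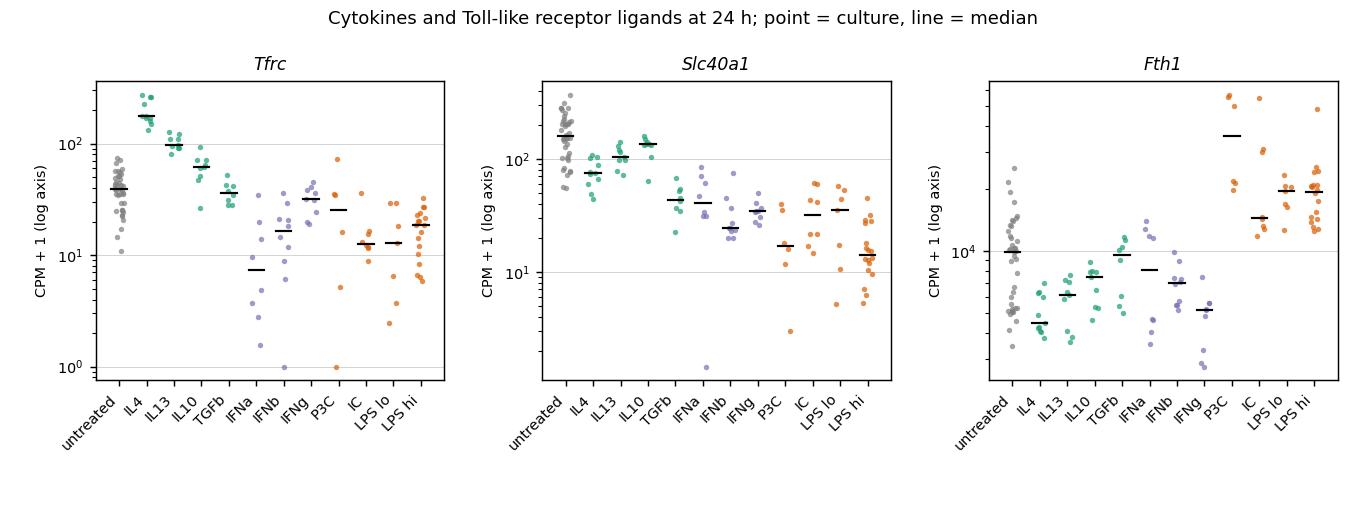
CPM + 1 on a log axis for each culture at 24 h (point) with the group median (line), in 1 panel each for Tfrc, Slc40a1 and Fth1, for untreated cultures, IL4, IL13, IL10, TGFb, the 3 interferons, P3C, IC, LPS_lo and LPS_hi. Tfrc is above all untreated cultures with IL4 (131 to 273 CPM) and IL13 (79.8 to 126 CPM), Slc40a1 is low with P3C and LPS_hi, and Fth1 is highest with P3C.

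The metal transporters Slc11a1 and Slc11a2 moved mostly upward. Slc11a1 rose at 24 h with HDL (153 to 272 CPM, log2 fold change 1.11, adjusted p = 0.00896), LPS_lo with resveratrol (1.10) and P3C (132 to 282 CPM, 1.05, adjusted p = 0.00375). At 72 h it fell with IL4 (41.96, 59.95 and 68.95 CPM, -1.56, adjusted p = 0.0106), IL13 (-1.13) and IFNb (-1.43). The IL4 and IL13 calls were lost with centring on the median gene (adjusted p = 0.0553 and 0.08), and the IFNb call with the plate in the model (-0.79, adjusted p = 0.135). Slc11a2 rose at 72 h with P3C (59.7 to 178 CPM, median 142, 1.56, adjusted p = 1.13e-05), TNFa with P3C (1.64, adjusted p = 3.57e-07) and LPS_lo (1.15, adjusted p = 5.16e-05), and fell at 24 h with nicotine (10.3 to 57.8 CPM, -1.09, adjusted p = 0.00363).

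In mice, LPS for 4 h moved 6 of the 10 genes, 5 higher and 1 lower, where 17.9% of the 9012 genes tested were called and the median gene shifted by -0.19. The metallothioneins rose most. Mt2 was at 71.0, 78.4, 59.7 and 42.3 CPM in the PBS mice and at 633, 597, 569 and 647 CPM in the LPS mice. Mt1 was at 448, 558, 360.3 and 243 CPM in the PBS mice and at 1835, 1725, 1693 and 2156 CPM in the LPS mice. Every LPS mouse exceeded every PBS mouse for both, with log2 fold changes of 3.30 for Mt2 (SE 0.20, adjusted p = 1.03e-06) and 2.26 for Mt1 (SE 0.24, adjusted p = 7.31e-05).

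Slc11a2 was at 22.96, 25.2, 28.9 and 24.998 CPM with PBS and 136, 89.3, 155 and 100.0 CPM with LPS (log2 fold change 2.16, SE 0.20, adjusted p = 2.26e-05). Slc39a14 was at 6.87, 7.51, 6.74 and 10.2 CPM with PBS and 21.1, 25.3, 43.04 and 22.99 CPM with LPS (1.68, SE 0.23, adjusted p = 0.000564). Both importers were thus higher in each LPS mouse than in any PBS mouse. Fth1 rose from 611, 769, 613 and 612 CPM to 1183, 1379, 1289 and 1262 CPM (0.98, SE 0.15, adjusted p = 0.00103). Slc40a1 fell from 219.6, 249, 212 and 219.6 CPM to 146, 130.3, 106 and 100.0 CPM (-0.91, SE 0.16, adjusted p = 0.00341). Neither pair of groups overlapped. The exact rank-sum test gave p = 0.0286 for each of the 6 genes, the smallest value that 4 against 4 allows. That value follows from the lack of overlap in the same mice and is no separate evidence. The share of all genes tested without overlap was not counted. Ftl1 (0.18, adjusted p = 0.545), Tfrc (0.19, adjusted p = 0.587), Slc11a1 (-0.01, adjusted p = 0.976) and Slc30a1 (-0.35, adjusted p = 0.314) were not called.

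Set beside the cultures, the 6 genes called in mice at 4 h had the same direction there for Slc40a1, Slc11a2, Slc39a14 and Mt2 in LPS_hi at 4 h, while Mt1 (-0.38) and Fth1 (-0.47, adjusted p = 0.14) were not called in those cultures. Slc40a1 fell by 0.91 in mice and by 3.71 in cultures on the log2 scale. The difference between mice and cultures was not tested, and dose, route, reference and cells differ.

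Several marker lists moved with LPS in mice. The 10 genes of the tissue dissociation response, many of them early response genes, summed to 374 to 418 CPM with PBS and 3094 to 3753 CPM with LPS. Neutrophil markers summed to 97.1 to 172 against 202 to 379 CPM with all 8 above 0, monocyte markers to 26.8 to 61.6 against 63.4 to 123 CPM, and red cell markers reached 17383 CPM in 1 LPS mouse. Microglia markers stayed within 46267 to 58232 CPM in the PBS mice and 48827 to 54395 CPM in the LPS mice. The part of the lists that moved was not tested. Leaving out each mouse in turn kept 6 genes called in all 8 fits.

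**Figure D4:**
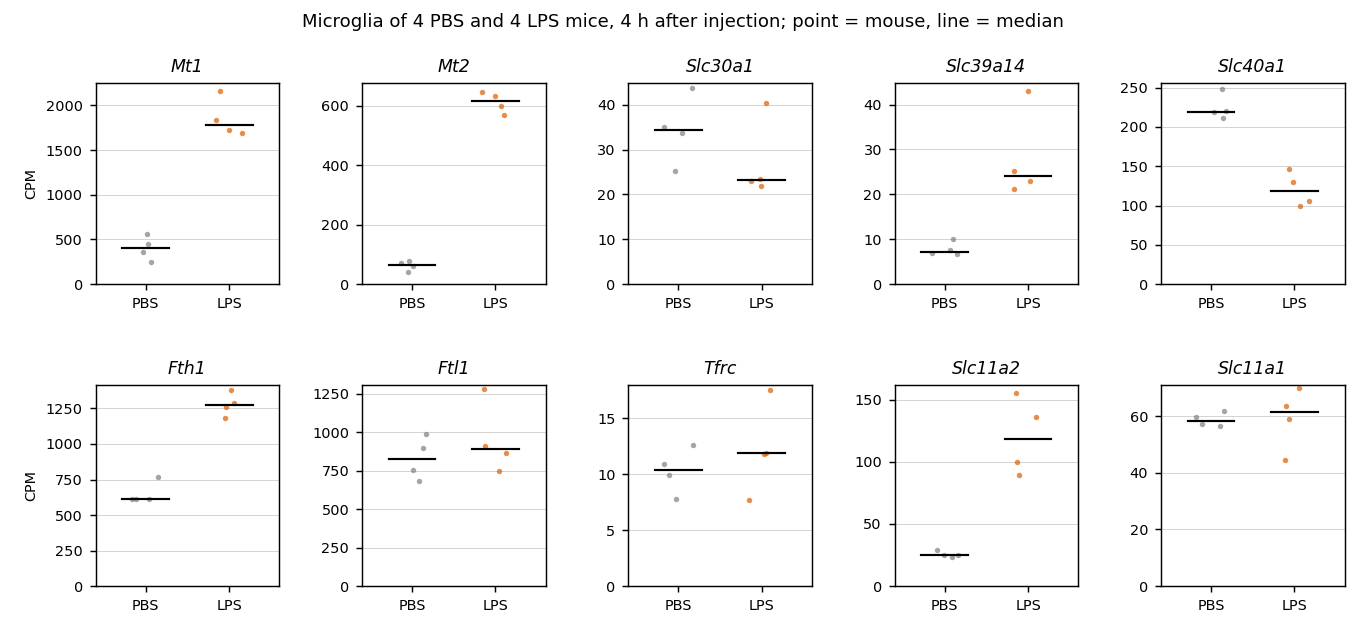
CPM on linear axes from 0 for each of the 4 PBS and 4 LPS mice (points) with the group median (line), in 1 panel for each of the 10 genes. Mt1, Mt2, Fth1, Slc11a2 and Slc39a14 are higher and Slc40a1 lower in all 4 LPS mice than in any PBS mouse, and the groups overlap for the other 4 genes.

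With age, 1 of the 10 genes was called, Slc40a1, where 2.26% of all genes were called. It had a mean of 185 CPM (SD 32.9, n = 11) at 2 months and 124 CPM (SD 31.2, n = 13) at 22 months, a log2 fold change of -0.59 (SE 0.13, adjusted p = 0.00803). The column headers gave these mice 2 experiment identifiers, called library batches here, and the library numbers split the same way. The batches may thus differ in more than the libraries. The first held the 8 mice whose headers say Vehicle, so that batch, experiment and label cannot be told apart. In the second batch the 7 young mice ranged from 152 to 204 CPM and the 9 old mice from 91.7 to 113 CPM, without overlap. In the first, the 4 young mice ranged from 144 to 249.7 CPM and the 4 old mice from 145 to 199.8 CPM, which overlapped, and that batch alone gave -0.28 (adjusted p = 0.677) against -0.71 in the second. With the batch in the model the value was -0.56 (adjusted p = 0.000253), just short of 1.5-fold and so not called.

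Fth1 passed the test and missed the fold limit. It had a mean of 1039 CPM (SD 146) at 2 months and 1534 CPM (SD 280) at 22 months, a log2 fold change of 0.55 (adjusted p = 0.00462). The batch means were 954 and 1304 CPM in the first batch and 1087 and 1637 CPM in the second, so old mice were higher in both, and the second batch did not overlap (919 to 1184 against 1297 to 1993 CPM). Ftl1 differed more between batches than between ages, with means of 1247 and 1953 CPM in the first and 489 and 727 CPM in the second. It was not called as fitted (0.50, adjusted p = 0.501), and with the batch in the model it was 0.58 (adjusted p = 0.00184), again under 1.5-fold. Tfrc was lower at 22 months by -0.60 (adjusted p = 0.099) and with the batch in the model was called (-0.62, adjusted p = 0.0347). Mt1 (0.10, adjusted p = 0.944) and Mt2 (0.19, adjusted p = 0.903) were not called, and the batch means of Mt1 ran from 196 to 145 CPM in the first batch and from 310 to 367 CPM in the second. Neutrophil markers summed to a median of 659 CPM (197 to 1301) at 2 months and 1285 CPM (369 to 4330.4) at 22 months, monocyte markers to 115 and 247 CPM and T cell markers to 7.41 and 21.5 CPM, and their part was not tested.

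**Figure D5:**
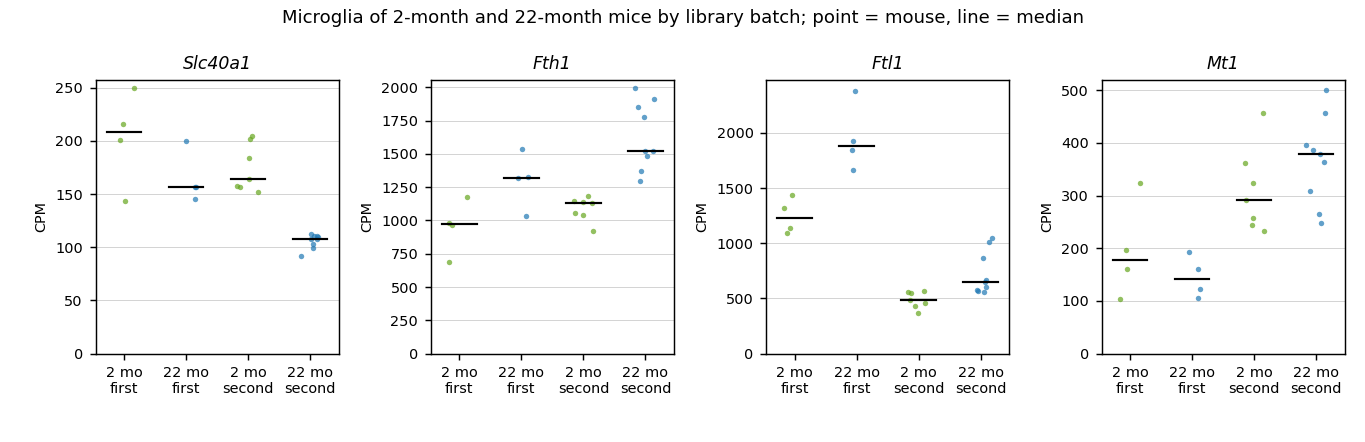
CPM on linear axes from 0 for each mouse (point) with the median (line), for 2 and 22 months within the first and the second library batch, in 1 panel each for Slc40a1, Fth1, Ftl1 and Mt1. Slc40a1 separates the ages in the second batch (152 to 204 against 91.7 to 113 CPM) and overlaps in the first, and Ftl1 lies higher in the first batch at both ages.

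Other genes of metal handling were read by 4 lists. With LPS_hi at 24 h, 7 of 21 other iron genes tested (28 listed) were called, 2 higher and 5 lower, beside 26.8% of all genes. Ceruloplasmin (Cp), the ferroxidase that works with ferroportin, rose (log2 fold change 3.09), and Hfe (-2.52), a regulator of iron uptake, and transferrin (Trf, -2.27) fell. The list's median was -0.21, beside -0.14 over all genes. Of 11 heme and haptoglobin genes, 2 were higher and 3 lower, led by Lcn2 (5.82), which binds bacterial iron carriers, and the heme receptor Lrp1 (-2.74), with heme oxygenase Hmox1 at 1.15. Of 19 other zinc and metallothionein genes, 1 was higher and 4 lower, with Slc39a8 (-1.67), Slc39a11 (-1.09) and Slc30a4 (-0.96) first. Of 8 genes of the copper list, 2 were higher, the copper transporters Slc31a2 (2.90) and Slc31a1 (1.76), and 2 lower. Mmgt1, at -1.53 among the latter, was on this list although it is named as a magnesium transporter.

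At 72 h of LPS_hi, with 22.3% of all genes called, the other iron genes had 1 higher, Cp (4.74), and 8 lower, with Trf (-3.54) and Hfe (-2.13) first. Heme genes had 3 higher and 2 lower, again led by Lcn2 (6.63) and Lrp1 (-2.26), and Hmox1 was at 1.53. Zinc genes had 3 in each direction and copper genes 2 higher and 1 lower. At 4 h the counts were 1 higher and 6 lower for iron, 0 and 6 for heme, 0 and 5 for zinc and 1 and 4 for copper, of 21, 11, 19 and 8 genes tested, where 35.3% of all genes were called and the median of all genes was -0.39. IFNg for 24 h, with 11% of all genes called, gave 1 higher and 3 lower of the 21 iron genes, with Hfe (-1.68) and Trf (-1.54) lower as with LPS_hi, and 5 lower of the 11 heme genes. IL4 for 24 h, with 4.5% of all genes called, gave 2 higher iron genes, Aco1 (1.00), whose protein is an iron regulatory protein, and Iscu (0.83).

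In LPS mice the iron list had 3 higher, Steap4 (3.63), Bach1 (1.96) and Cp (0.95), and 3 lower of 19 tested. Lcn2 (2.52) was the heme gene called of 8, Slc39a4 (0.77) the zinc gene called of 19, and no copper gene of 7 was called. In aged mice 2.26% of all genes were called. The list calls were Ltf (1.36) of 18 iron genes tested, Hp (1.52) of 10 heme genes and Slc39a4 (0.93) of 19 zinc genes. No copper gene of 8 was called. Ltf and Hp, lactoferrin and haptoglobin, are also granule proteins of neutrophils. As given above, neutrophil marker sums had a higher median in the old mice and overlapped between the ages. Their part in these calls was not tested.

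The genes most like each member were ranked by Pearson's r over the 97 condition means, among 9388 genes with a mean of at least 5 CPM. These values are descriptions, since conditions share plates and pools. Mt2 was most like Ezr (r = 0.71) and Rhob (0.69), followed by Mt1 (0.64). Mt1 was most like the mannose receptor Mrc1 (0.78), Dpp7 (0.76) and Anxa3 (0.75). Fth1 was most like Fth-ps2 (0.90), a row named as a ferritin pseudogene with a mean of 5.56 CPM, between which the authors' counting could split reads, and then Ppfibp2 (0.84) and Aoah (0.79). Slc11a1 was most like Fth1 itself (0.76), ahead of Rab10 (0.75). Slc40a1 was most like Cgn (0.82), Serpinb6a (0.82) and Mfsd6 (0.81), and Tfrc like Clcn5 (0.76), Egr2 (0.74) and Pi4ka (0.74). Ftl1 was most like Ulk4 (0.78) and the ribosomal protein genes Rpl28 and Rpl19 (both 0.76). Slc11a2 was most like Bcl3 (0.71), Junb and Pik3r5 (both 0.70), Slc39a14 like Tnfsf9 (0.70), Rab11fip1 and Crlf3, and Slc30a1 like Rufy3 (0.74), Mafk (0.71) and Nfatc1 (0.70).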

How the data were processed

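The deposited values were CPM (named TPM in the methods, though without a length term), which the authors made with Salmon 0.7.1 from 3′-end libraries after removing cultures under 1 M mapped reads. The labels name the build mm8 and the methods Ensembl transcripts. Low values were whole multiples of 1 read in a median of 77.6% of values per culture (tolerance 0.1), so reads were not recovered and no count test was run. Tests used limma 3.58.1 (R 4.3.3) on log2(CPM + 1) without covariates, in 1 fit of 783 cultures for genes above 5 CPM in at least 4 cultures, and separate fits for the mice (above 5 CPM in at least 4 or 11 mice). Benjamini-Hochberg adjustment ran over all genes tested within a comparison. One culture whose labels disagree on dose was in no group. The cultures came from 3 cell lots, 10 plates and 21 library pools. Plate and pool entered only alternative fits, and the cell lot entered no fit. Genes, lists and conditions to name were chosen with earlier results of these data known. Conditions were named by the largest called changes of each gene, beside a fixed set of main stimuli. Scripts were tested on simulated data.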

Additional observations from a re-analysis of the deposited data

Results flagged for a closer look

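The highest sample lay far from the others in 12 of 90 checks over the named pairs of gene and condition, LPS_hi at 4 h and the LPS experiment in mice. These pairs were in part picked for the size of their change. Over all 85 groups of 4 to 10 samples and the 10 genes, 100 of 850 checks (11.8%) had such a sample at either end, where chance gives about 1 in 20 if values are normally distributed. Fth1 reached 14536.5 CPM in 1 IL13 culture at 72 h (next 5971 CPM), 9996 CPM in 1 LPS_hi culture at 4 h (next 6897 CPM) and 769 CPM in 1 PBS mouse (next 613 CPM). With LPS_lo and IFNg at 72 h, Mt1 reached 184 CPM (next 60.1 CPM), Mt2 18.9 CPM (next 6.66 CPM) and Slc40a1 187 CPM (next 44.6 CPM). With TNFa and IFNg at 72 h, Mt1 reached 259 CPM (next 127 CPM) and Slc40a1 664 CPM (next 104 CPM). Mt1 reached 964 CPM in 1 culture with LPS_lo and eotaxin at 72 h (next 250.4 CPM). Slc30a1 reached 54.2 CPM in 1 P3C culture at 24 h (next 18.7 CPM) and 40.4 CPM in 1 LPS mouse (next 23.3 CPM), and Slc39a14 4.82 CPM in 1 GMCSF culture at 72 h (next 1.12 CPM).

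The change against untreated cultures differed between 72 h and 24 h in 19 of 250 tests by limma (25 stimuli, 10 genes), given here as the 72 h log2 fold change minus that at 24 h. The share of such calls over all genes was not counted, so 19 cannot be read as many or few. The untreated cultures of the times share no plate, and what this adds to the differences was not tested. Ftl1 differed with CRH (1.21), IFNg (1.24), LPS_hi (1.01), LPS_lo (0.96) and MPP (1.19), each less low or higher at 72 h. Slc40a1 differed with GABA (-1.77), IL4 (-2.68) and MPP (-1.94), each lower at 72 h. Fth1 differed with PA (-1.25), s100B (-1.40) and TNFa (-1.47), and Slc11a1 with GABA (-1.29). Tfrc differed with LPS_lo (2.32), P3C (1.99) and TNFa (-2.42), Slc30a1 with MPP (-2.35) and TNFa (-3.17), and Mt2 with P3C (3.27) and TNFa (-4.31). The 72 h group of TNFa held 3 cultures.

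Fth1 was at 39369.8 CPM in the culture of no group at 72 h, above the highest untreated 72 h culture (30561 CPM).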

How the results depend on the processing

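Counts of conditions called for Mt1, Mt2, Slc40a1, Tfrc and Slc30a1 stayed within 1.5 times of their values in the alternatives run. Others moved. Fth1 gave 21 conditions with only the 2 groups compared in the fit. Ftl1 gave 5 with a 2-fold minimum and 8 with centring on the median gene. Slc11a1 gave 19 with the 2-fold minimum and 18 with the 2 groups, and Slc11a2 gave 8 and 10. Slc39a14 gave 3 with the plate in the model, 1 at a pseudocount of 0.1, 2 without the filter and 8 with centring. Untreated 72 h against 24 h gave 2 genes with the 2-fold minimum and 0 with the pool in the model, where Fth1 (-0.44) and Slc11a1 (-0.82) reversed. Aging gave 2 genes with no minimum fold, and 0 with the 2-fold minimum, a pseudocount of 5 or the first batch alone, and with the batch in the model the 1 gene called was Tfrc. Additions to LPS gave 25 calls with the plate, 27 with the pool and 7 with centring. The LPS mice gave 6 to 6 genes when each mouse was left out in turn. Of the values of single genes, 1425 kept their call, 217 lost it and 4 reversed, the others being Mt1 with TNFa at 72 h without cultures under 2 M reads (0.35) and Slc11a1 with LPS_hi at 24 h in 1 plate (-0.14). Unless given above, the cause was not tested. No paired analysis was possible because the labels carry no replicate numbers. In the shallowest libraries low values are the least certain, which touches Slc39a14 and the lowest Mt2 values most.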

Other observations

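One culture of 72 h had the name of LPS_hi and the dose of LPS_lo, so it was in no comparison. At 4.37 M mapped reads it had 298 CPM of Mt1, 45.7 CPM of Mt2, 39369.8 CPM of Fth1, 28680.3 CPM of Ftl1, 523 CPM of Slc40a1, 2.06 CPM of Tfrc, 316 CPM of Slc11a1, 54.7 CPM of Slc11a2, 0.688 CPM of Slc39a14 and 3.66 CPM of Slc30a1.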
